A study of Mus musculus with 2 samples.

Results

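The Hoxa, Hoxb and Hoxd genes are described here by the DNase I accessibility of their promoters and of the DNA between them. The members were listed by name as the protein-coding genes of these 3 clusters. They number 29 of the 21853 protein-coding genes of GENCODE M21: 10 Hoxa genes on chromosome 6, 10 Hoxb genes on chromosome 11 and 9 Hoxd genes on chromosome 2 (mm10). Each cluster was read across the span of its outermost listed genes with 20 kb added to each side, and beside 500 kb of flanking DNA on each side.

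Accessibility was mapped by DNase-seq, in which DNase I cuts DNA that proteins in the nucleus leave exposed and the cut ends are sequenced. The cells were MN1, a mouse immortalized line of strain B6NCrl, with no treatment named in the labels, age and developmental stage unknown, and sex not collected. There was 1 group of 2 biological replicates, both tied by the labels to a single donor, with 1 library each. No second condition was measured, so values of the libraries are set side by side without a test.

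Hox genes encode homeodomain transcription factors that give cells their position along the head-to-tail axis. Genes at one end of a cluster are switched on early and act in anterior tissue, and genes at the other end later and posteriorly. Polycomb complexes keep silent stretches of a cluster compact, MLL/Trithorax complexes keep active stretches open, and CTCF bound between genes can mark the boundary, while retinoic acid receptors act on enhancers within the clusters.

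Replicate 1 held 170600 distinct peaks and replicate 2 held 162983. Peaks that touched one of the other list by at least 1 bp are called shared, and on the main chromosomes made up 67.1% of the list of replicate 1 and 70.2% of the list of replicate 2. The score printed for a peak is the authors' own, ran from 1 to 150 and had a median of 49 in replicate 1 and 39 in replicate 2. It was used only as a rank, and its percentile is the share of peaks of the same list that scored lower, with ties counted at their midpoint. The read depth behind the lists is unknown, so a promoter without a peak is one where none was called, not one shown to be closed. The labels name no tissue of origin. Of marker genes, 8 of 8 neuron genes (such as Tubb3, a neuronal tubulin, and Snap25, a synaptic vesicle fusion protein) had a promoter peak in both libraries. So had 2 of 8 fibroblast genes and 0 of 8 blood genes, beside 57.9% of all protein-coding genes. Of the genes listed for fibroblasts, Dcn and Thy1 had one in replicate 1 only.

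The promoters of 5 Hoxa genes and of no Hoxb or Hoxd gene were accessible in both libraries. A promoter is the DNA within 1 kb of any start site of a protein-coding transcript. Hoxa4, Hoxa5, Hoxa6, Hoxa7 and Hoxa10 had a peak there in both libraries, which makes 5 of 10 Hoxa genes, 0 of 10 Hoxb genes and 0 of 9 Hoxd genes. These 5 of 29 members stand beside 57.9% of all protein-coding genes. Taken by library, 6 of 29 members had a promoter peak in replicate 1, where 59.6% of all genes had one, and 7 of 29 in replicate 2, where 59.5% had one. A peak in replicate 1 alone was found at Hoxb13, and in replicate 2 alone at Hoxa3 and Hoxb6. The remaining 21 members had none in either library: 4 Hoxa genes, 8 Hoxb genes and all 9 Hoxd genes.

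**Figure D1:**
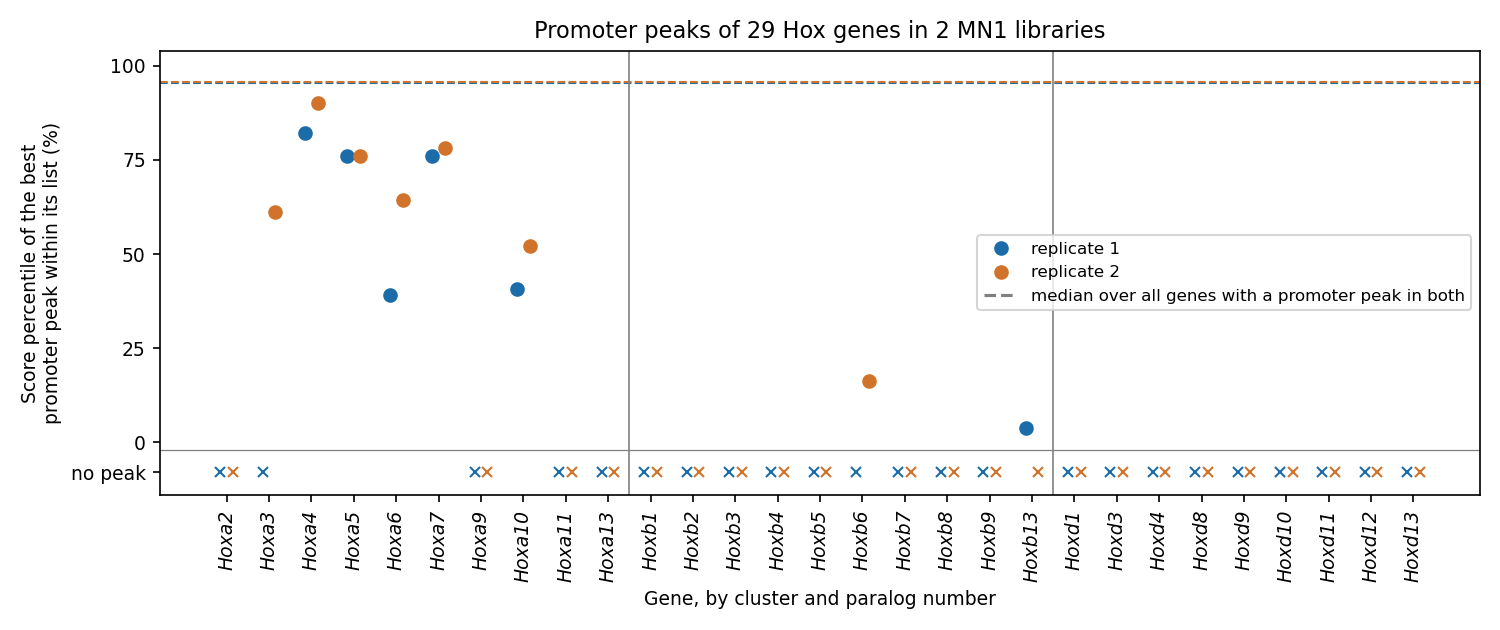
Score percentile of the best promoter peak of each of 29 Hox genes within its own library's peak list (vertical axis, percent), with replicate 1 in blue, replicate 2 in orange and crosses for no peak; the dashed lines are the medians over all genes with a promoter peak in both libraries, 95.5 and 95.6. Points in both colours appear for Hoxa4, Hoxa5, Hoxa6, Hoxa7 and Hoxa10, all below the dashed lines, and the Hoxd genes carry crosses throughout.

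The sequences that follow are the shared peaks that the description turns on: peaks among the 3 of highest mean rank in each cluster, together with the cluster peak that held a retinoic acid response element match. Each is the plus strand of mm10 over the peak of replicate 1, and capitals mark the motif match named beside it.
Hoxa4 promoter peak (no match marked), chr6:52191876-52192025: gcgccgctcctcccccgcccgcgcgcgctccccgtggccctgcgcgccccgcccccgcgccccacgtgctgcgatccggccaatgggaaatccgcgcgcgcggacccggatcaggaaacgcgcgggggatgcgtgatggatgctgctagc
Peak between Hoxa6 and Hoxa7 (CDX match, minus strand), chr6:52211676-52211825: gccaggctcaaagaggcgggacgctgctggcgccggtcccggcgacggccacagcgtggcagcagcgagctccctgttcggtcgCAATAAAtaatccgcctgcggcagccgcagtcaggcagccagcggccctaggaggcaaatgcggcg
Peak at the Hoxaas3 start (DR5 match, minus strand), chr6:52175496-52175645: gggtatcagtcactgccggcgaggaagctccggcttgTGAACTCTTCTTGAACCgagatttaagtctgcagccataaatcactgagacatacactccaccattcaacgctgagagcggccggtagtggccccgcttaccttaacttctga
Peak between Hoxb9 and Hoxb8 (near match to the CTCF core, plus strand), chr11:96278896-96279045: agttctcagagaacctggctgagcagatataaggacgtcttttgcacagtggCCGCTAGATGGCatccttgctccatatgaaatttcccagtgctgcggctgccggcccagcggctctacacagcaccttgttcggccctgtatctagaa
Peak inside Hoxb6 (no match marked), chr11:96294636-96294785: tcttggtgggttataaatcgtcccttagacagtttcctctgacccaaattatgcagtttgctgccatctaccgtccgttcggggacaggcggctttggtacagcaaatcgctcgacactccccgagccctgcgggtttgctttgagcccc
Peak between Hoxd13 and Hoxd12 (near match to the CTCF core, minus strand), chr2:74673056-74673205: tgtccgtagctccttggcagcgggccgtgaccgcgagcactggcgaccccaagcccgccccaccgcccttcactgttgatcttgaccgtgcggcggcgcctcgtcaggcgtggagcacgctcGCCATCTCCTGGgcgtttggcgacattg
Peak in Hoxd3 and Hoxd4 (no match marked), chr2:74715896-74716045: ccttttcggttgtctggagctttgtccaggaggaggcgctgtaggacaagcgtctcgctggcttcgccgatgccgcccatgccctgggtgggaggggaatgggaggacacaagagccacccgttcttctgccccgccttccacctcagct
Peak between Hoxd9 and Hoxd8 (near match to the CTCF core, plus strand), chr2:74702316-74702465: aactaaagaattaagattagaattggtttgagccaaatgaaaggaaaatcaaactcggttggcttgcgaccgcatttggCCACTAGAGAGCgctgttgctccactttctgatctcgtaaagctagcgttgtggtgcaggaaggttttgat

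Among the Hoxa genes, the accessible promoters formed a run from Hoxa4 to Hoxa7, the genes that act in the neck and upper trunk. Hoxa4 (chromosome 6, 52189671 to 52191753, minus strand) had the highest-ranked promoter peak of any member. It scored 91 in replicate 1 (percentile 82.1) and 107 in replicate 2 (percentile 90.1), and lay just upstream of the start site. With weaker peaks on both sides, its promoter held 2 peaks in replicate 1 and 4 in replicate 2. The best promoter peak of Hoxa5 (52201754 to 52204587), a gene needed for lung and neck skeleton development, scored 80 in replicate 1 (percentile 76.1) and 72 in replicate 2 (percentile 76.0). That peak was centred 4 bp from the start site in replicate 1 and 24 bp from it in replicate 2. Hoxa5 had 1 promoter peak in replicate 1 and 3 in replicate 2.

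Hoxa6 (52206288 to 52208722) ranked lower than its neighbours, with a score of 41 in replicate 1 (percentile 39.1) and 54 in replicate 2 (percentile 64.4). Hoxa7 (52214491 to 52221854) had 2 promoter peaks shared by the libraries, at different annotated start sites. The peak at its outer start scored 80 in replicate 1 (percentile 76.1) and 76 in replicate 2 (percentile 78.1), and overlapped the first exon. The peak at an inner start site, 52217496 to 52217645, scored 39 in replicate 1 and 56 in replicate 2. Hoxa10 (52231197 to 52240854), which patterns the hindlimb and the uterus, was the only member of groups 9 to 13 with a promoter peak in both libraries. Its single peak, in an exon 303 bp inside the gene, scored 42 in replicate 1 (percentile 40.6) and 41 in replicate 2 (percentile 52.1).

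Even the accessible Hoxa promoters ranked low for promoters. Over the 12643 genes whose promoter held a peak in both libraries, the best peak had a median percentile of 95.5 in replicate 1 (quartiles 89.6 and 98.1) and 95.6 in replicate 2 (quartiles 90.2 and 98.1). All 5 Hoxa genes lay below the lower quartile in both libraries, Hoxa4 in replicate 2 only narrowly. The deposited hotspots, which are broader accessible regions with a q-value on the −log10 scale capped at 100, were also called at all 5 promoters in both libraries. Hoxa4, Hoxa5 and Hoxa7 were at the cap in both libraries. Hoxa6 had a −log10 q of 2.11 in replicate 1 and was at the cap in replicate 2. Hoxa10 had 2.44 in replicate 1 and 4.51 in replicate 2.

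The other 5 Hoxa genes lacked a promoter peak in at least 1 library. Hoxa3, which acts in the hindbrain and the throat region, has 2 annotated start sites, one of them beyond Hoxa6, where its long transcript begins. Replicate 1 had a promoter peak at neither, and its nearest peak was centred 1364 bp inside the gene from the outer start. In replicate 2 the outer start had a peak of score 50 (percentile 61.1) and the inner start one of score 21. The outer peak also lies at the start of Gm28308, an annotated read-through gene, and the long Hoxa3 transcript runs across Hoxa4, Hoxa5 and Hoxa6, so peaks there cannot be assigned to 1 gene. Hoxa2, a hindbrain and neural crest gene, had its nearest peak centred 3940 bp from its start in replicate 1 and 3380 bp in replicate 2. For Hoxa9 the distance was 4378 bp in replicate 1 and 4358 bp in replicate 2. For Hoxa11 and Hoxa13, genes of the limb and genital tract, the nearest peak was centred 5259 bp and 3671 bp away in both libraries.

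Hoxb promoters were nearly free of peaks. The best of them, at Hoxb6, scored 20 in replicate 2 (percentile 16.2, −log10 q of its hotspot 1.45) and was not called in replicate 1. Hoxb13, a gene of the tail end and the prostate, had a peak of score 16 in replicate 1 (percentile 3.70) and none in replicate 2. Both are near the bottom of their lists. Hoxb8 came next, with a shared peak centred 2934 bp upstream of its nearest start site. The other Hoxb genes were farther away. Distances in replicate 1 and replicate 2 were 5616 and 5936 bp for Hoxb4, 7448 and 5968 bp for Hoxb9, and 7652 and 6828 bp for Hoxb7. Hoxb5 was 8219 bp from a peak in both libraries. Hoxb3 was 10675 bp and 10995 bp from one. The 2 most anterior genes were the most distant: Hoxb2 lay 38980 bp from a peak in replicate 1 and 39300 bp in replicate 2, and Hoxb1, a hindbrain segment gene, 34259 bp and 42179 bp.

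No Hoxd promoter had a peak in either library, and 2 of the 9 genes had one within 2.5 kb of a start. Hoxd12 was 1882 bp from a shared peak and Hoxd8 was 2224 bp from one. Hoxd3 (4044 bp), Hoxd9 (4664 bp), Hoxd4 (6007 bp), Hoxd11 (9192 bp) and Hoxd10 (10467 bp) had the same nearest peak in both libraries. Hoxd13, the limb digit gene at the posterior end, was 3741 bp from a peak in replicate 1 and 3761 bp in replicate 2. Hoxd1 was 4051 bp from a replicate 1 peak and 14951 bp from the nearest one of replicate 2.

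Across paralogs, genes that share a number descend from 1 ancestral gene. In group 4 Hoxa4 had a promoter peak in both libraries while Hoxb4 and Hoxd4 had none in either, and in group 5 Hoxa5 had one while Hoxb5 had none. In group 10 Hoxa10 had one and Hoxd10 had none. Groups 6 and 7 repeated this, except that Hoxb6 had its weak peak in replicate 2. No paralog of groups 1, 2, 8, 9, 11 or 12 among the 29 members had a promoter peak in either library. In the Hoxc cluster, read the same way, 4 of 9 promoters held a peak in both libraries, beside 57.9% of all protein-coding genes. They were those of Hoxc4, Hoxc5, Hoxc9 and Hoxc10, and that of Hoxc13 held one in replicate 1.

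CpG-rich promoters are usually accessible, and Hox promoters differ in CpG content, so members were read beside genes of similar content at the outermost start. A promoter peak could lie at any start, so for genes with several starts the ratio may describe a different one. The CpG observed/expected ratio within 500 bp of the outermost start ranged from 0.256 at Hoxd4 to 0.996 at Hoxa5, with a median of 0.689 over the 29 members. The median was 0.665 for the Hoxa genes, 0.472 for the Hoxb genes and 0.726 for the Hoxd genes, so the Hoxd promoters, none with a peak, were the richest in CpG by this median. Of the 29 members, 15 fell in the 4 highest of 10 equal classes of all genes, and 2 of these 15, Hoxa4 and Hoxa5, had a promoter peak in both libraries, where 88.3% of all genes in those classes had one. In the highest class, Hoxa4 and Hoxa5 had a peak in both libraries and Hoxa13, Hoxd11 and Hoxd13 had none, beside 91.3% of all genes. Hoxb5 and Hoxb7, in the class below, had none, beside 90.3%. Hoxa6, Hoxa7 and Hoxa10 all came from the sixth class, where 3 of 6 members and 77.4% of all genes were accessible in both libraries.

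**Figure D2:**
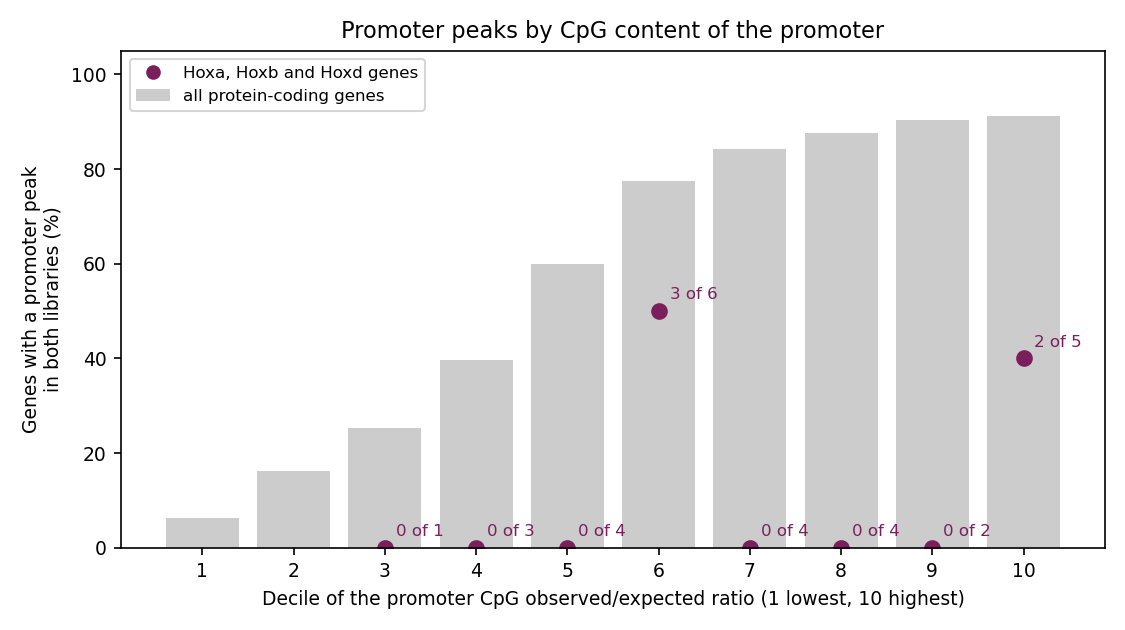
Share of genes with a promoter peak in both libraries (vertical axis, percent) by decile of the promoter CpG observed/expected ratio (horizontal axis), with grey bars for all protein-coding genes and purple points for the Hoxa, Hoxb and Hoxd genes. The bars climb to 91.3% in the highest decile, and every purple point lies below its bar, the highest being 3 of 6 in decile 6 and 2 of 5 in decile 10.

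Between and around the genes, the 3 clusters differed in the number of peaks. The Hoxa span (138.464 kb, 52142417 to 52280880) held 17 peaks in replicate 1 and 32 in replicate 2, of which 15 were shared, or 10.8 shared peaks per 100 kb. The Hoxb span (213.941 kb, 96174316 to 96388256) held 9 and 12 peaks, with 6 shared, or 2.80 per 100 kb. The Hoxd span (136.833 kb, 74648310 to 74785142) held 8 and 7 peaks, with 6 shared, or 4.38 per 100 kb. The genome as a whole had 4.31 shared peaks per 100 kb, so the Hoxd span lay near it, the Hoxb span under it and the Hoxa span above it. The Hoxc span on chromosome 15 had 23.1. Hotspots of both libraries covered 2.90% of the Hoxa span, 0.664% of the Hoxb span and 1.36% of the Hoxd span, beside 1.66% of the genome and 9.10% of the Hoxc span.

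**Figure D3:**
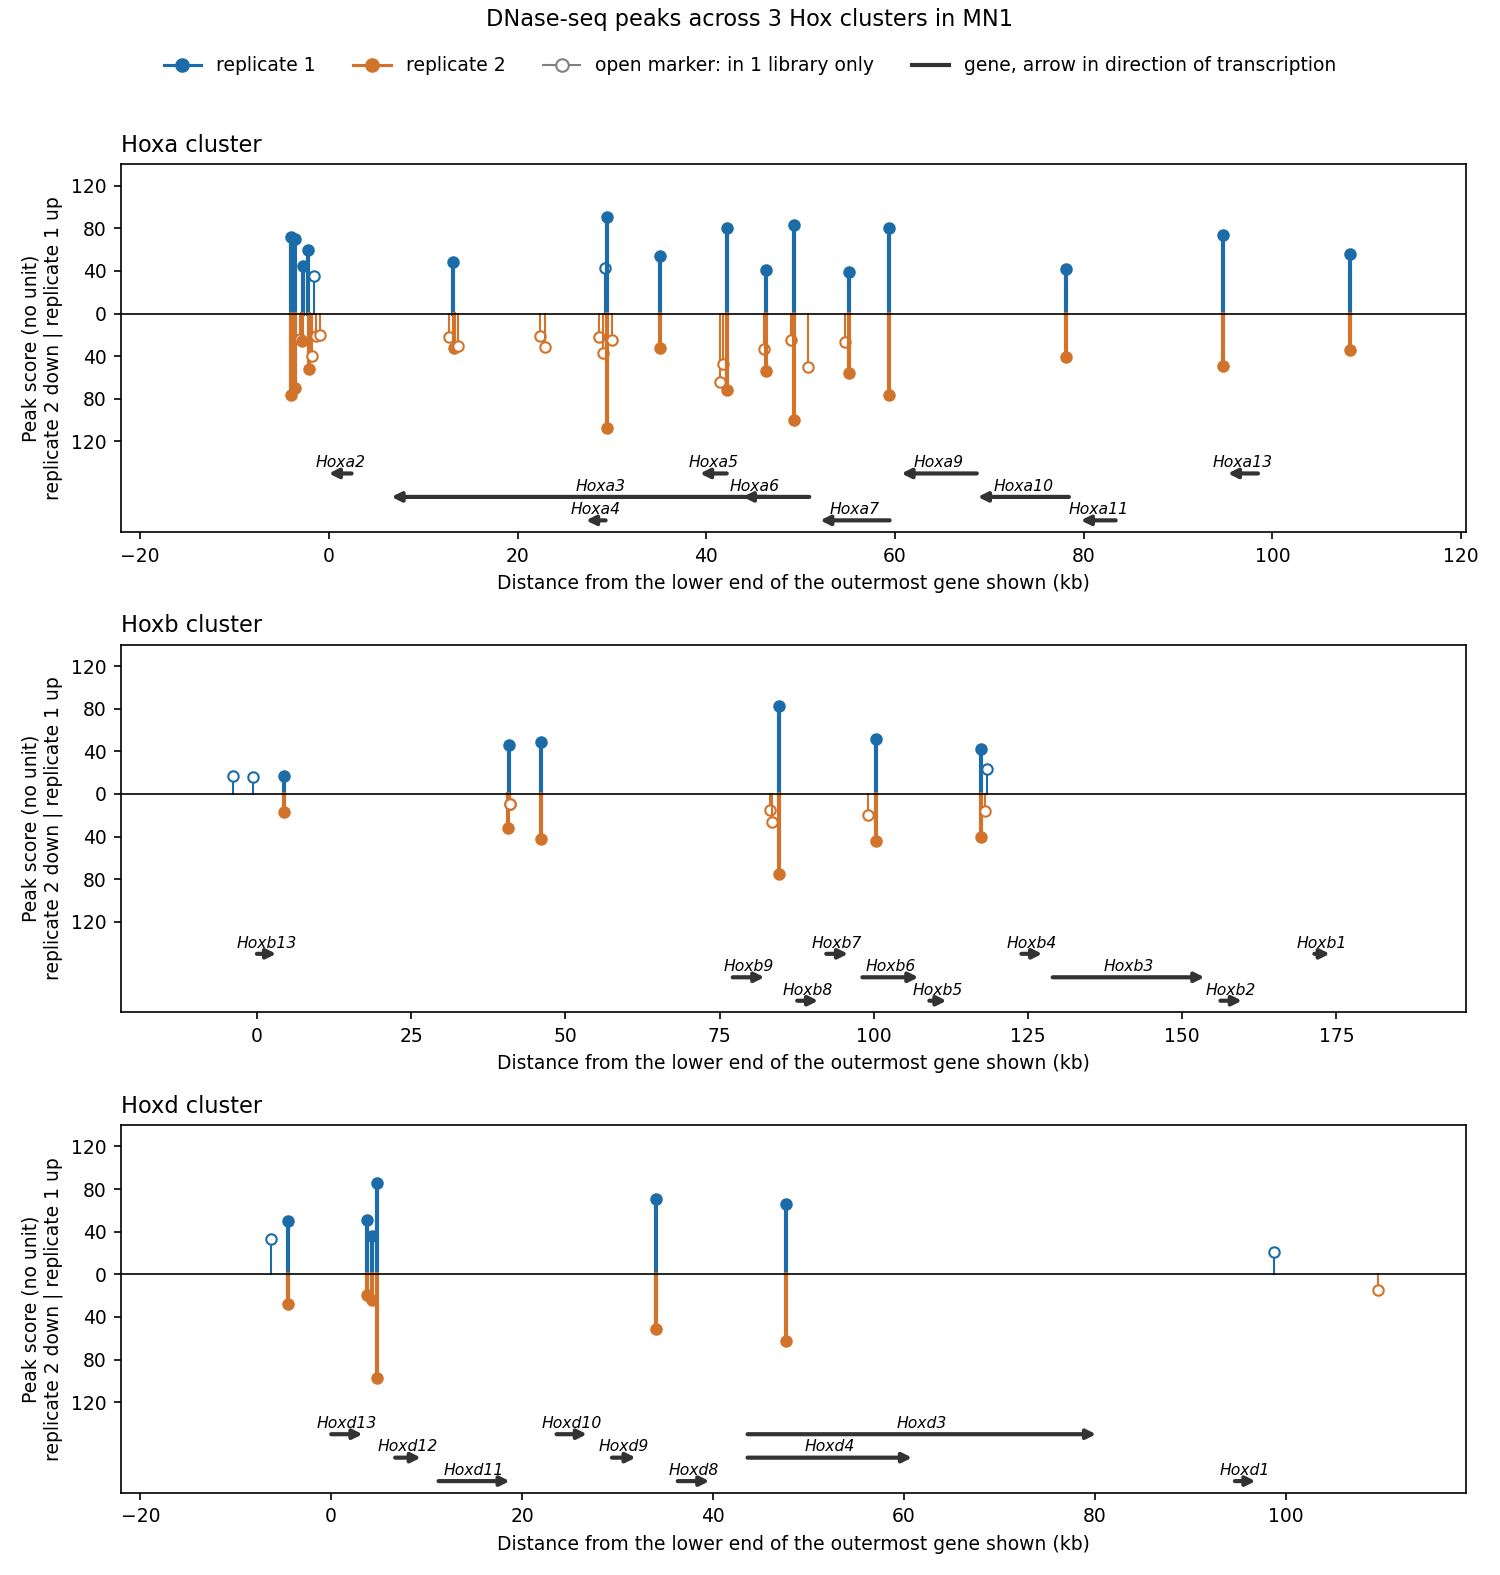
Peaks of replicate 1 (blue, up) and replicate 2 (orange, down) across each Hox cluster, with the authors' score on the vertical axis, distance from the lower end of the outermost listed gene in kb on the horizontal axis, arrows for the genes, and open markers for peaks of 1 library. The Hoxa peaks crowd beside Hoxa2 (5 and 8 peaks in 10 kb) and over Hoxa4 to Hoxa7 (8 and 16 peaks), whereas the right-hand end of the Hoxb panel and the right-hand part of the Hoxd panel are largely empty.

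Within the Hoxa span, the peaks were unevenly spread. The 10 kb bin with the most peaks lay beyond the 3′ end of Hoxa2, with 5 in replicate 1 and 8 in replicate 2, 4 of them shared. Some of these peaks lay at the promoter of a protein-coding gene that is not listed. From Hoxa4 to Hoxa7 (32.184 kb) there were 8 peaks in replicate 1 and 16 in replicate 2, with 7 shared, or 21.7 per 100 kb. From Hoxa9 to Hoxa13 (37.781 kb) there were 2 peaks in each library, both shared, or 5.29 per 100 kb. The longest stretch between the outermost genes without a peak of either library was 18.57 kb in the Hoxa cluster, running from the outer start of Hoxa7 to the promoter of Hoxa10 and holding the starts of Hoxa9. In the Hoxb cluster it was 55.531 kb of 173.941 kb and held the start sites of Hoxb1, Hoxb2, Hoxb3 and Hoxb4, the anterior genes. In the Hoxd cluster it was 49.097 kb of 96.833 kb and held those of Hoxd1 and Hoxd4, also at the anterior end.

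Peak density in the flanks differed from that in the clusters. Beside the Hoxa cluster, the 1000 kb of flanking DNA had 35 peaks in replicate 1 and 22 in replicate 2, with 14 shared, or 1.40 per 100 kb, lower than within the span. Beside the Hoxd cluster there were 23 and 15 peaks, with 10 shared, or 1.00 per 100 kb, also lower than within. Beside the Hoxb cluster there were 138 and 133 peaks, with 96 shared, or 9.60 per 100 kb, higher than within. The Hoxb cluster was the one with fewer shared peaks per 100 kb than its flanks. Its higher flank was uneven, by distance from the lower end of the outermost gene. No 10 kb bin from 200 to 570 kb held more than 2 peaks of a library. Most peaks of that flank lay in the bins from 580 kb outward, with up to 9 in replicate 1 and 7 in replicate 2. The peak-poor stretch thus ran on beyond Hoxb1.

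**Figure D4:**
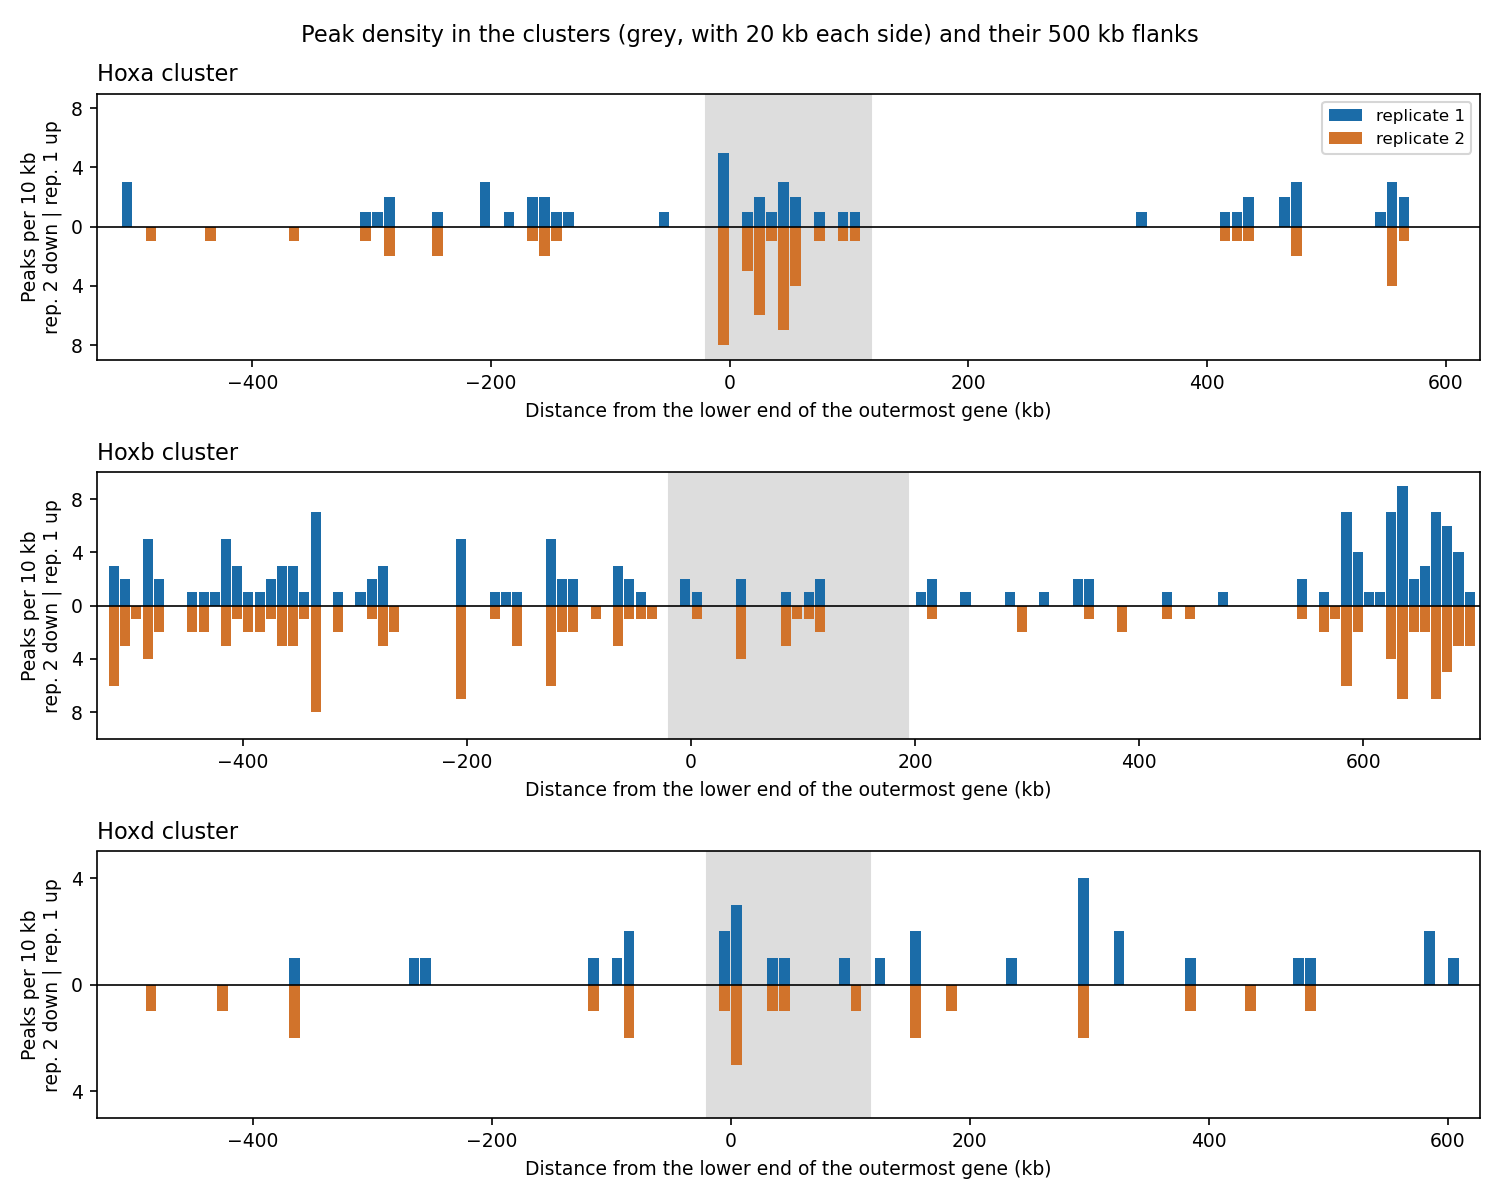
Number of peaks per 10 kb bin (replicate 1 up, replicate 2 down) across each cluster span, shaded grey, and 500 kb on each side, with distance from the lower end of the outermost listed gene in kb on the horizontal axis. Bars are dense inside the Hoxa shading (17 and 32 peaks in replicate 1 and replicate 2) and sparse in its 1000 kb of flanks (35 and 22). For Hoxb they are sparse inside (9 and 12 peaks) and more numerous in the flanks (138 and 133). On its higher side they gather mostly at the outer end of the flank.

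Of 27 neighbouring genes, 18 (66.7%) had promoter peaks in both libraries, near the 57.9% of all protein-coding genes. Skap2, an adaptor protein gene that borders the Hoxa cluster at 149.868 kb, had promoter peaks of score 120 and 114 in replicate 1 and replicate 2. Hibadh (134 and 137), an enzyme of valine breakdown, and Tax1bp1 (134 and 132), an autophagy receptor, lay farther out on the other side. Evx1, the homeobox gene nearest to the Hoxa cluster at 52.617 kb, had no promoter peak. Around the Hoxd cluster, Lnpk (142 and 131), which shapes the endoplasmic reticulum, and Mtx2 (124 and 124), a mitochondrial import gene, had promoter peaks at 88.875 kb and 60.66 kb, while Evx2, inside the span, had none. On the lower side of the Hoxb cluster 9 of 13 neighbours had a promoter peak in both libraries, the nearest being Ttll6 (33 and 15), Atp5g1 (144 and 134), Ube2z (142 and 135) and Snf8 (111 and 99). Calcoco2, Gip, Igf2bp1 and B130006D01Rik had none. On the higher side 4 of 5 had one, Snx11 (146 and 140), Cbx1 (129 and 127), Nfe2l1 (143 and 140) and Copz2 (52 and 63), and Skap1 had none. Skap1 is the first gene beyond Hoxb1, at 96.336 kb.

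Shared peaks differed in where they fell. Of the 15 Hoxa peaks, 8 lay at a promoter of a protein-coding gene, and 6 of these at one of a listed gene. At such promoters lay 0 of the 6 Hoxb and 0 of the 6 Hoxd peaks. These counts and the GC medians below stand without the values over all shared peaks, so they describe the clusters only. The median GC content was 61.3% for the Hoxa peaks, 54.3% for the Hoxb peaks and 50% for the Hoxd peaks. The strongest Hoxa peak outside a promoter, 52211676 to 52211825, lay between Hoxa6 and Hoxa7 in an intron of the long Hoxa3 transcript and scored 83 and 100. That is higher than the best promoter peak of Hoxa5, Hoxa6, Hoxa7 or Hoxa10 in the same library. Another, 52197416 to 52197565, lay between Hoxa4 and Hoxa5 and scored 54 and 32. Towards the posterior end, a peak at 52257056 to 52257205, downstream of Hoxa13, scored 74 and 49, and one at 52270616 to 52270765, beyond the Hoxa13 start, scored 56 and 34. The peak at the Hoxaas3 start, 52175496 to 52175645 (48 and 32), and the 4 shared peaks beyond the 3′ end of Hoxa2 complete the 15.

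In the Hoxb cluster the highest-ranked peak lay between Hoxb9 and Hoxb8, 96278896 to 96279045, and scored 83 and 75. A peak at 96294636 to 96294785, in an intron of Hoxb6 and inside the antisense gene Hoxb5os, scored 52 and 44. The peak at 96311656 to 96311805, between Hoxb5 and Hoxb4, scored 42 and 40. In the long gap between Hoxb13 and Hoxb9 lay the peaks at 96240356 to 96240505 (49 and 42) and 96235036 to 96235185 (46 and 32). The peak at 96198696 to 96198845, next to Hoxb13, was the weakest shared peak, with 17 in both libraries.

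In the Hoxd cluster 3 of the 6 shared peaks lay between Hoxd13 and Hoxd12. The strongest, 74673056 to 74673205, scored 86 and 97, and the others, 74671976 to 74672125 and 74672556 to 74672705, scored 51 and 19, and 36 and 24. A peak at 74715896 to 74716045 scored 66 and 63. It lay inside both Hoxd3 and Hoxd4, which overlap, and inside the antisense gene Hoxd3os1 near its start. The peak between Hoxd9 and Hoxd8, 74702316 to 74702465, scored 71 and 51. The last, 74663676 to 74663825, lay beyond Hoxd13 towards Evx2 and scored 50 and 28.

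The excess of replicate 2 peaks was largest in number in the Hoxa cluster. There 17 peaks were called in replicate 2 only and 2 in replicate 1 only, against 6 and 3 in the Hoxb cluster and 1 and 2 in the Hoxd cluster. As a share of all distinct peaks of the span, those of 1 library made up 55.9% in the Hoxa, 60% in the Hoxb and 33.3% in the Hoxd cluster, beside 47.8% over the genome. Over the genome replicate 1 had more peaks, with 6.43 per 100 kb and 6.15 in replicate 2. Of the 17 replicate 2 peaks, 9 lay at promoters of listed genes, namely 3 at Hoxa4, 2 at Hoxa5, 1 at Hoxa6, 2 at Hoxa3 and 1 at Hoxa7. The scores of the 17 ran from 20 to 64 (percentiles 16.2 to 71.4), and 2 of the 17 lay in a hotspot of replicate 1. The labels name sequencing instruments for replicate 2 only, and the part of the instrument or of depth in this difference was not tested.

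CTCF, the boundary protein, has a core recognition motif, which was searched on both strands as were the other motifs. None of the 27 shared peaks held an exact match (95% interval of the share 0 to 12.8%), and 4.42% of all 114222 shared peaks held one. With 1 mismatch allowed, 7 of 27 (25.9%) held a match, beside 13.7% of all shared peaks, and these were 3 of 15 Hoxa, 1 of 6 Hoxb and 3 of 6 Hoxd peaks. The matches lay between 3 and 54 bp from the centre of their peak. They are written below 5′ to 3′ along the strand of the match, with the mismatched base in capitals, to show which base departs from the core in each. Their likeness was set by the search.
Hoxa7 outer promoter, chr6:52221809-52221820, - strand: ccagGagatggc
Hoxa10 promoter, chr6:52240541-52240552, - strand: ccacGagatggc
Beyond Hoxa13, chr6:52270702-52270713, + strand: ccactagatgTc
Between Hoxb9 and Hoxb8, chr11:96278948-96278959, + strand: ccGctagatggc
Between Hoxd13 and Hoxd12, strongest peak, chr2:74673178-74673189, - strand: ccagGagatggc
Between Hoxd13 and Hoxd12, weaker peak, chr2:74672642-74672653, - strand: ccaccagagAgc
Between Hoxd9 and Hoxd8, chr2:74702395-74702406, + strand: ccactagagAgc

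The Hoxa7 match and that of the strongest Hoxd peak had the same letters. Both matches in Hoxa promoters were on the minus strand, and the one beyond Hoxa13 was on the plus strand. The peaks at Hoxa7 and Hoxa10 flank the peak-free stretch with the Hoxa9 starts by definition, since that stretch runs from one peak to the next. A match describes the letters of a peak and not the binding of the protein.

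Retinoic acid receptors bind direct repeats, and a repeat with a spacing of 5 bp (DR5) occurred in 1 of the 27 cluster peaks and in 162, or 0.142%, of all shared peaks. This peak, 52175496 to 52175645, lay in an intron of the long Hoxa3 transcript at the start of the antisense gene Hoxaas3, and scored 48 and 32. It also held matches for PBX-HOX (TGATTNAT), the joint motif of Hox proteins and their cofactors, and for CDX (TTTATNG). The PBX-HOX and CDX matches overlap, so they are not separate sites. No DR2 repeat was found, beside 0.127% of all shared peaks. Over the 27 peaks, PBX-HOX matched 1 (3.70%, beside 2.29% of all shared peaks) and CDX matched 2 (7.41%, beside 4.51%). The MEIS motif (TGACAG) matched 3 (11.1%, beside 12.6%). Motifs of more general activators were AP-1 (TGANTCA) in 1 peak beside 12.05%, the motif AGATAA bound by factors of the GATA family in 1 beside 7.04%, and the E-box CAGCTG in 2 beside 14.3%. With 27 peaks, the shares of these motifs rest on 3 peaks at most.

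Noncoding genes with a start inside the spans were counted the same way. Over the genome, 28.7% of long noncoding genes and 18.3% of microRNA genes had a peak within 1 kb of a start in both libraries. Of 7 long noncoding genes in the Hoxa span, 2 had such a peak, one of them Hoxaas3 (48 and 32). Of 5 in the Hoxb span none had one, and of 7 in the Hoxd span 1 had one, Hoxd3os1 (66 and 63). Hottip and Hoxa11os at the posterior Hoxa end, Hoxb5os, Hoxb3os and Haglr had none. None of the 5 microRNA genes had one, among them Mir196b, Mir196a-1, Mir10a and Mir10b, which lie between or within Hox genes and repress Hox transcripts. These counts rest on at most 7 genes in a span and were not tested.

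Genes known to control the clusters differed by list, and the counts stand beside the 57.9% of all protein-coding genes. All 17 genes of the Polycomb list were accessible at the promoter in both libraries, including Ezh1, Ezh2, Eed and Suz12 of the complex that methylates histone H3. All 13 MLL/Trithorax and boundary genes had one, including Kmt2a, Kmt2b, Men1 and Ash2l. Of the 9 Hox cofactor genes, 8 had one, including Meis1, Meis2 and Meis3, and Pknox2 had none. Of 16 upstream regulators, 8 had one, a share near that of all genes, including Egr2, a hindbrain regulator of anterior Hox genes, Gdf11, a signal for posterior ones, and Rara, a retinoic acid receptor. Cdx1, Cdx2 and Cdx4, which activate trunk Hox genes, had none, nor had Gbx2, Rarb, Aldh1a2 and Cyp26a1. Of 10 other homeobox genes of the same class, Pdx1 and Gbx1 had a promoter peak in both libraries, and Evx1, Evx2, Gsx1, Gsx2, Mnx1, Gbx2, En1 and En2 had none.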

How the data were processed

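DNase-seq was deposited for 2 MN1 libraries. Per the submitters' notes supplied with the files, peaks and hotspots on mm10 were derived from the filtered alignments of each library without pooling; the aligner, caller and thresholds were not given in the sources used here. Deposited peak intervals, 150 bp wide except 2, carry the authors' score, with no stated normalization. The deposited hotspots carry a −log10 q-value.

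From these, repeated entries were removed (43 and 20), the 19 autosomes, X and Y were kept, and peaks were placed by 54361 start sites of GENCODE M21; 85 protein-coding genes without a protein-coding transcript start were left out. The reference sequence was GRCm38, the same assembly as mm10. Motif matches were exact unless stated. Python 3.11.15, numpy 2.4.6, scipy 1.17.1 and matplotlib 3.10.9 were used, and interval overlaps were checked on simulated data. No test across conditions was possible with 1 group, and intervals cover counting error only.

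All listed members were named; neighbours within 500 kb were named by distance, and genes of the other lists where they lacked a promoter peak in both libraries or came among the first 4 that had one. The members and lists were chosen with earlier results of these data known. The noncoding genes, the printed DR5 peak, the near matches to the CTCF core and the start sites of all transcripts were chosen after seeing the data, and the Hoxa4 to Hoxa7 and Hoxa9 to Hoxa13 stretches likewise. A gene of the Hoxa cluster and some genes of the lists are not reported here. The spans run between the outermost genes named in the report. Alternatives tried were promoter windows of 500 bp and 2.5 kb, the outermost start site alone, hotspots in place of peaks, a score at or above the list median, an overlap of 75 bp, hotspots of the other library as overlap, spans without the added 20 kb, a motif window of 300 bp and each library alone.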

Additional observations from a re-analysis of the deposited data

How the results depend on the processing

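The same 5 Hoxa genes had promoter peaks in both libraries with a 500 bp window, with the outermost start alone, with hotspots and with start sites of all transcripts, the last chosen after seeing the data. A 2.5 kb window gave 9 members, adding Hoxa3, Hoxb6 (1 Hoxb gene), Hoxd8 and Hoxd12 (2 Hoxd genes). Peaks at or above the median score left 3 members, all Hoxa (Hoxa4, Hoxa5 and Hoxa7), and 8 shared peaks in the Hoxa span, 3 in the Hoxb span and 3 in the Hoxd span. With each library alone, the Hoxa genes numbered 5 to 6, the Hoxb genes 1 in either (Hoxb13 without replicate 2, Hoxb6 without replicate 1) and all members 6 to 7. Peaks in the span then numbered 17 to 32 for Hoxa, 9 to 12 for Hoxb and 7 to 8 for Hoxd, and hotspots covered 3.26% to 6.42%, 0.962% to 1.05% and 1.52% to 1.70%; these rise because sharing is no longer required. Without replicate 1 the Hoxa count is 32 and the cover 6.42%, and the Hoxb count is 12. Between the outermost genes alone, hotspots covered 0.816% of the Hoxb and 1.71% of the Hoxd cluster. A CTCF core match with 1 mismatch, chosen after seeing the data, occurred in 25.9% of cluster peaks, against 0 exact matches. The cause was not tested for the score and window settings. No paired analysis was possible because there was 1 group. Depth was unknown, 2 libraries give no spread for a test, and the called lists do not show accessibility under the callers' thresholds.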
